A study of Homo sapiens with 24 samples.

Results

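The genes described here are POSTN, TGFBI, SPARC, SPARCL1, SMOC1, TNC, THBS1, THBS2, THBS3 and SPP1, which encode matricellular proteins outside the CCN family. They are 10 of the 60279 genes listed for each library, were looked up by Ensembl gene identifier, and all 10 had enough counts to be tested. They were chosen by protein family and with earlier results of these counts in view, among them the low level of POSTN in the libraries labelled TAZ4SA and its high level in the TAZ-CAMTA1 libraries. Their levels, differences between groups and numbers of calls are therefore a description, and no p-value is given for them. The study compared poly(A) RNA of SW872 cells, an established human liposarcoma line, that carried a stable retroviral construct for a fusion oncoprotein, for a full-length counterpart or for no protein. TAZ-CAMTA1 and YAP-TFE3 are the fusion proteins of epithelioid hemangioendothelioma, a vascular sarcoma, and they join the amino end of a Hippo pathway coactivator, TAZ (gene WWTR1) or YAP (gene YAP1), to the carboxy end of a transcription factor. TAZ4SA and YAP5SA are full-length TAZ and YAP with serines changed to alanine, which makes them insensitive to the Hippo kinases, and CAMTA1 and TFE3 are the full-length partners. The 8 groups held 3 libraries each and are named by their construct.

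EV denotes the empty vector in cells collected 48 h after confluence, and cells with either fusion, TAZ4SA, YAP5SA or TFE3 were collected at the same point. CAMTA1 cells were collected below confluence and were set against EVsub, an empty vector group titled sub-confluent. All groups shared the SW872 background, the pBabeNeo vector and G418 selection. The constructs carry a double Flag tag and were expressed in pooled stable lines beside the endogenous genes, so each group is an overexpression model. The question put to each comparison was whether a fusion protein changed these genes, and whether it did so in the same direction as the full-length coactivator. The same 3 EV libraries were the control of 6 comparisons, so those comparisons are not independent of each other.

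Matricellular proteins are secreted into the matrix but do not form its load-bearing fibres. They bind collagens, growth factors and cell surface integrins, and they tune adhesion, spreading and signalling. They are kept low in many adult tissues and are made during development, wound repair and in tumour stroma. Periostin and TGFBI are the fasciclin-domain members, SPARC, SPARCL1 and SMOC1 share an extracellular calcium-binding module, TNC is a tenascin, the thrombospondins regulate adhesion and vessel growth, and SPP1 is osteopontin, an integrin ligand. THBS1 is a known target of YAP and TAZ, which act through the TEAD DNA-binding factors.

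Bases upstream of the start site are shown for POSTN, the gene with the widest range of levels, and for THBS1 and THBS2, because they hold the short motif that TEAD factors bind. They are RefSeq bases of build GRCh38.p14, read 5′ to 3′ on the gene's strand and taken from the 250 bases before the start, without stretches that GENCODE annotates as exon. Capitals mark matches, on either strand, to 5 motifs that are spelled out after the sequences. The POSTN bases lie at chr13:37598845-37599018 on the minus strand, the THBS1 bases at chr15:39580829-39581078 on the plus strand and the THBS2 bases at chr6:169253897-169253989 on the minus strand.
POSTN: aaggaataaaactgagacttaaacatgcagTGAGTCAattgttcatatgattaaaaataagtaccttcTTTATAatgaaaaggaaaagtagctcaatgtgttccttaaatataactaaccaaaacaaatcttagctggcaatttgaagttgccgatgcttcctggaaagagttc
THBS1: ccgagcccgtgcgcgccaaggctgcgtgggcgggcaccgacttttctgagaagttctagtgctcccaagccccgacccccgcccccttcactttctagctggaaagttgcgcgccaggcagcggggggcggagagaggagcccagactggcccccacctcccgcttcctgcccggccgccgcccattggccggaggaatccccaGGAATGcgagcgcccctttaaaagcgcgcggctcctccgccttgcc
THBS2: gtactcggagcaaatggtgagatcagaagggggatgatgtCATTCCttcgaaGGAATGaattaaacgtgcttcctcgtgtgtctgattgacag
The POSTN bases held an AP-1 match, a TATA box match on the reverse strand 182 bases before the start, and no TEAD core. A forward TATA box match 29 bases before the start lay outside the printed bases, in POSTN and likewise in THBS2. The THBS1 bases held a single TEAD core, on the reverse strand and 46 bases before the start. The THBS2 bases held a pair of TEAD cores on opposite strands, 103 and 91 bases before the start. Within the full 250 bases, 3 of the 10 genes (SPARC, THBS1 and THBS2) held the TEAD core CATTCC, beside 11.9% of 35116 RefSeq promoters. The AP-1 motif, written TGANTCA, was in 1 gene, POSTN, beside 6.57% of promoters, and the TATA box, written TATAAA, was in 4 genes (POSTN, SPARCL1, SMOC1 and THBS2), beside 10.7%. The E-box of the MiT/TFE factors, CACGTG, was in 0 of the 10 genes and in 6.34% of promoters. The related M-box core, CATGTG, was likewise in 0 genes and in 9.42% of promoters. A match is a run of letters and not a shown binding site, and these windows leave out enhancers.

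Library totals ran from 19700277 to 35287476 counts, and levels are given as CPM, the count scaled to a common library size with TMM factors (trimmed mean of M-values). At that depth a floor of 3 counts was at most 0.147 CPM. Counts within each group differed by more than sampling noise in all 24 pairs of libraries, so none was treated as a repeat of another. The YAP-TFE3 library numbered 3 stood apart, with a chi-square per degree of freedom of 72.4 and 57.0 against the other YAP-TFE3 libraries, which were at 11.3 to each other, while pairs of the other groups reached at most 26.01. Its mitochondrial share was 5.12% against 3.63% and 3.79%. The check of the constructs went as labelled for CAMTA1, YAP1 and TFE3: CAMTA1 counts were 124 ± 8.09 CPM (SD, n = 3) in CAMTA1 and 144 ± 7.14 in TAZ-CAMTA1 against 21.4 ± 2.05 in EV and 22.9 ± 1.23 in EVsub. YAP1 was 253 ± 4.99 in YAP5SA against 128 ± 12.46 in EV, and TFE3 was 336 ± 19.3 in TFE3 against 119 ± 10.1 in EV. WWTR1 was not higher in either group with a TAZ construct: the libraries labelled TAZ4SA held 134 ± 0.539 CPM and those of TAZ-CAMTA1 181 ± 2.15, whose construct carries only the amino end of TAZ, against 204 ± 20.3 in EV, with every library of both below every EV library. The TAZ-CAMTA1 label thus rests on CAMTA1 and the YAP-TFE3 label on TFE3, which stood at 283 ± 49.6 CPM in YAP-TFE3. Without a TFE3 construct, TFE3 was also above every EV library in TAZ4SA, at 174 ± 14.3, YAP5SA, at 186 ± 14.0, and TAZ-CAMTA1, at 147 ± 10.5. Every YAP-TFE3 library was above all libraries of these groups. WWTR1 was also below every EV library in YAP5SA, at 68.7 ± 1.66 CPM, and in YAP-TFE3, at 126 ± 3.18, which carry no TAZ construct. No gene level checked the TAZ4SA label, and each direction given for TAZ4SA is that of the libraries so labelled. As to cell identity, VIM was between 472 and 1086 CPM by group, the leukocyte marker PTPRC was at most 0.0476 CPM and the 2 epithelial markers summed to at most 2.41 CPM. Of 5 adipocyte markers, ADIPOQ had 0 counts in every library and FABP4 was under 1 CPM, but LPL and PPARG were present. The 5 summed to 62.5 to 72.6 CPM in TAZ4SA, 114 to 128 in YAP5SA, 148 to 222 in EV, 172 to 234 in TAZ-CAMTA1 and 303 to 369 in YAP-TFE3. They summed to 107 to 113 in CAMTA1, below YAP5SA, and to 204 to 236 in EVsub and 184 to 236 in TFE3, both overlapping EV. The lowest and highest groups were those of POSTN, but the order between them was not. POSTN was higher in CAMTA1 than in YAP5SA and lower in EVsub than in EV. The 2 endothelial markers CDH5 and PECAM1 were present and differed between groups. They summed to 5.06 to 9.28 CPM in YAP5SA, 21.8 to 37.6 in TAZ4SA and 38.5 to 62.1 in EV. The fusions parted, at 47.0 to 73.4 in TAZ-CAMTA1, overlapping EV, and 18.02 to 31.2 in YAP-TFE3, below every EV library. These markers summed to 15.3 to 20.4 in CAMTA1, 21.1 to 29.8 in EVsub and 33.9 to 60.96 in TFE3. The part of either marker list in the results was not tested. In cultures counted in bulk, fewer cells that express a gene and less RNA per cell cannot be told apart.

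POSTN encodes periostin, a secreted fasciclin-domain protein that binds collagen, fibronectin and integrins. The gene lies at chr13:37562583-37598844 on the minus strand and overlaps no other annotated gene. In EV it stood at 22.4, 20.2 and 15.3 CPM. In the libraries labelled TAZ4SA it was near the floor, at 0.281, 0.516 and 0.386 CPM from 7, 12 and 10 counts. Every TAZ4SA library was far below every EV library, and the group was the lowest of the 8. In YAP5SA it was 1.51, 1.43 and 2.05 CPM, again below all EV libraries and above all of TAZ4SA. In TAZ-CAMTA1 it was 54.6, 48.7 and 58.9 CPM and in YAP-TFE3 76.6, 50.6 and 50.6 CPM. Both fusion groups were above every EV library, and they overlapped each other. The full-length TFE3 libraries held 24.7, 40.2 and 32.4 CPM, between EV and the fusions and overlapping neither. Below confluence the levels were lower, at 7.44, 13.8 and 6.76 CPM in EVsub and 2.38, 5.39 and 5.94 in CAMTA1, with no overlap between these groups or with EV. From high to low the means were YAP-TFE3 59.3, TAZ-CAMTA1 54.1, TFE3 32.5, EV 19.3, EVsub 9.33, CAMTA1 4.57, YAP5SA 1.66 and TAZ4SA 0.394 CPM, and only the first pair of neighbours overlapped. The highest group mean was 150.4 times the lowest. By the log2 range of its group means, POSTN exceeded 99.9% of all tested genes.

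TGFBI, the other fasciclin-domain gene and a classical TGF-beta induced product, lies at chr5:136028988-136063818 on the plus strand. It was abundant and nearly level, with group means from 508 CPM in YAP-TFE3 to 810.3 in YAP5SA. The EV libraries held 705, 683 and 768 CPM. The TAZ-CAMTA1 libraries held 590.5, 509.7 and 547 CPM and the YAP-TFE3 libraries 475, 522 and 525 CPM, all below the lowest EV library. The libraries labelled TAZ4SA, at 839, 857 and 651 CPM, and the YAP5SA libraries, at 938, 861 and 632 CPM, spread across the EV range. Its order of groups was thus unlike that of POSTN, with both fusions at the bottom. Its log2 range of group means, 0.66, exceeded that of 22.7% of tested genes.

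**Figure D1:**
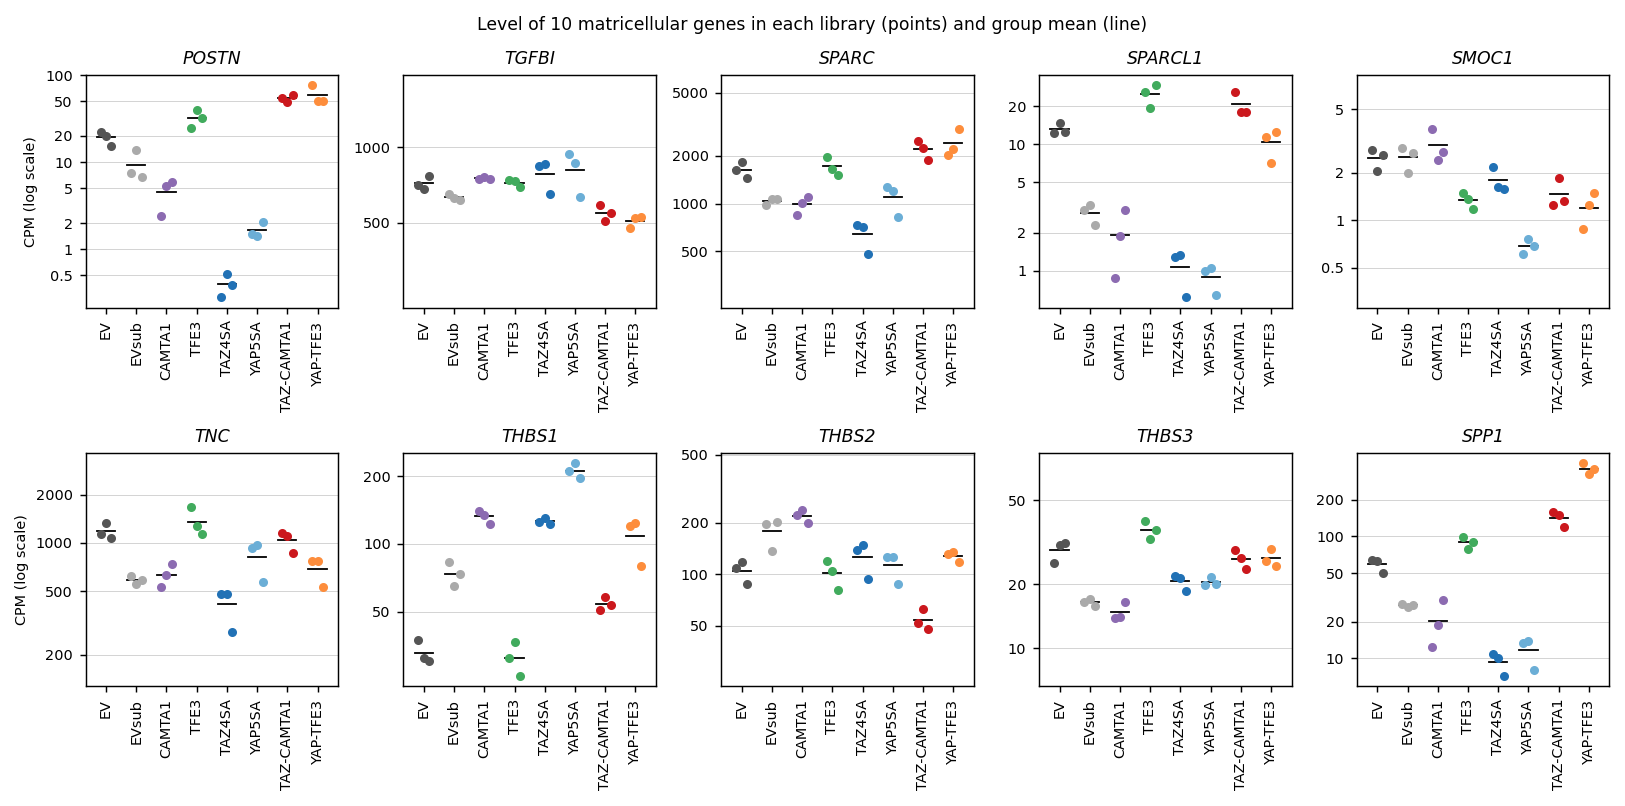
Level of each of the 10 genes in every library as TMM-scaled CPM on a log axis, with points for the 3 libraries of a group and a line for their mean. POSTN runs from 0.394 CPM in the libraries labelled TAZ4SA to 59.3 in YAP-TFE3, SPP1, SPARC and SPARCL1 are also low in TAZ4SA, and THBS1 is highest in YAP5SA at 212 CPM.

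SPARC, or osteonectin, binds collagen and hydroxyapatite and loosens cell adhesion, and SPARCL1, or hevin, is its closest relative. SPARC (chr5:151661096-151686975, minus strand) had, per kilobase of exon, the highest level of the 10 genes in every group, and an opposite-strand lncRNA gene, CLMAT3, overlaps it, so reads of the 2 genes may not be separated. It stood at 1633, 1827 and 1458 CPM in EV and at 729, 713 and 482 in the libraries labelled TAZ4SA. TAZ-CAMTA1 libraries held 2474, 2244 and 1884 CPM and YAP-TFE3 libraries 2037, 2207 and 2976, above every EV library. YAP5SA libraries, at 1278, 1193 and 828 CPM, were below every EV library. The TFE3 group, at 1718 ± 240.2 CPM (SD, n = 3), could not be separated from EV, at 1639 ± 185, and EVsub and CAMTA1 overlapped each other at 1039 ± 47.2 and 989 ± 128. SPARCL1 (chr4:87473335-87531061, minus strand) had a wide range. Its EV libraries held 12.3, 14.7 and 12.46 CPM, those labelled TAZ4SA 1.29, 1.33 and 0.617 and those of YAP5SA 0.992, 1.05 and 0.643. These last values rest on 32, 31 and 16 counts and on 21, 22 and 16 counts. Both full-length coactivator groups overlapped each other and were far below EV. TAZ-CAMTA1 libraries held 25.9, 17.98 and 18.2 CPM, above EV and overlapping full-length TFE3 at 26.2, 19.6 and 29.5. YAP-TFE3 libraries, at 11.3, 7.16 and 12.6 CPM, overlapped EV, so SPARCL1 parted the fusions where POSTN and SPARC did not. EVsub stood at 3.01, 3.34 and 2.30 CPM and CAMTA1 at 0.873, 1.89 and 3.05, both below EV.

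SMOC1, a basement membrane protein of the same calcium-binding family that can restrain BMP signalling, lies at chr14:69854131-70032366 on the plus strand and was a low gene throughout. It stood at 2.76, 2.06 and 2.57 CPM in EV and at 0.614, 0.761 and 0.683 in YAP5SA, the lowest group, from 13, 16 and 17 counts. The other confluent groups lay between, at 1.25, 1.85 and 1.32 CPM in TAZ-CAMTA1, 0.878, 1.26 and 1.48 in YAP-TFE3, 1.49, 1.36 and 1.17 in TFE3 and 2.17, 1.63 and 1.58 in TAZ4SA. It was highest in CAMTA1 at 2.97 ± 0.726 CPM and EVsub at 2.50 ± 0.461 (SD, n = 3). In the order of group means only the lowest neighbours, YAP-TFE3 and YAP5SA, did not overlap.

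TNC encodes tenascin C, a large hexameric protein of stroma and wound beds that weakens adhesion to fibronectin. The gene (chr9:115019575-115118207, minus strand) overlaps an opposite-strand gene, DELEC1, and reads of both may be mixed. It stood at 1130.3, 1332 and 1069 CPM in EV. In the libraries labelled TAZ4SA it was 479.7, 480.2 and 279 CPM, the lowest group and apart from all others. YAP5SA held 926, 966 and 567 CPM and YAP-TFE3 771, 769 and 532, and these groups overlapped each other and lay below EV. TAZ-CAMTA1, at 1149, 1100.4 and 863 CPM, and TFE3, at 1664, 1274 and 1128, overlapped EV. EVsub and CAMTA1 were at 588 ± 34.0 and 633 ± 103 CPM (SD, n = 3). In both full-length coactivator groups the library numbered 3 was the lowest for TGFBI, SPARC, SPARCL1, TNC, THBS1, THBS2 and SPP1, and its scaling factor stood apart too. That factor was 0.957 against 0.900 and 0.902 in TAZ4SA, and 0.964 against 0.911 and 0.907 in YAP5SA, and its part in the levels was not tested.

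The thrombospondins are multimeric matrix glycoproteins, and THBS1 and THBS2 share an anti-angiogenic action through the receptors CD36 and CD47. THBS1 (chr15:39581079-39599466, plus strand) went the other way from POSTN in the full-length groups. It stood at 37.3, 30.9 and 30.2 CPM in EV and at 210.5, 228 and 197 in YAP5SA, the highest group. The libraries labelled TAZ4SA held 125, 131 and 122 CPM. Both full-length coactivator groups were above every EV library, and did not overlap each other. The fusions were above EV as well, with 51.0, 57.8 and 53.6 CPM in TAZ-CAMTA1 and 121, 124 and 80.1 in YAP-TFE3. The YAP-TFE3 library numbered 3 was low in its group. TFE3, at 31.1, 36.5 and 25.97 CPM, overlapped EV, and the sub-confluent groups were higher, at 82.9, 64.7 and 73.5 in EVsub and 141, 135 and 123 in CAMTA1. THBS1 overlaps an intronic transcript on its strand and antisense genes on the other, so its counts could include their reads.

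THBS2 (chr6:169215780-169254050, minus strand, with an antisense gene) followed another order again. Its lowest group was TAZ-CAMTA1, at 52.0, 62.4 and 48.1 CPM against 109, 118 and 88.4 in EV, and its highest were CAMTA1, at 223, 237 and 199, and EVsub, at 198, 136 and 201. YAP-TFE3 held 132, 136 and 119 CPM, just above EV. The libraries labelled TAZ4SA, at 139, 148 and 94.5 CPM, YAP5SA, at 127, 126 and 88.3, and TFE3, at 119, 105 and 81.1, all overlapped EV. THBS3, a pentameric thrombospondin of cartilage and bone (chr1:155195588-155209051, minus strand), shares its locus with MTX1 and an antisense gene on the other strand, so its values are uncertain. It ranged from 14.8 CPM in CAMTA1 to 36.1 in TFE3. EV libraries held 25.3, 30.7 and 31.4 CPM, those labelled TAZ4SA 21.9, 21.4 and 18.7 and those of YAP5SA 19.9, 21.7 and 20.2. TAZ-CAMTA1 at 26.5 ± 2.63 and YAP-TFE3 at 26.6 ± 2.62 CPM (SD, n = 3) overlapped EV and each other. By group mean the 3 thrombospondin genes therefore had 3 different lowest groups, TFE3, TAZ-CAMTA1 and CAMTA1. Only for THBS2 was the lowest group apart from the next. THBS1 in TFE3 overlapped EV, and THBS3 in CAMTA1 overlapped EVsub.

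SPP1 encodes osteopontin, a phosphorylated ligand of RGD-binding integrins and of CD44. The gene (chr4:87975667-87983532, plus strand) is overlapped by an opposite-strand lncRNA. It stood at 64.3, 63.0 and 49.9 CPM in EV. YAP-TFE3 was the highest group at 396, 327 and 355 CPM and TAZ-CAMTA1 the next at 159, 149.7 and 119. All libraries of both fusions were above every EV library, and the fusions did not overlap. TFE3 libraries held 98.9, 79.4 and 89.2 CPM, also above EV. YAP5SA, at 13.3, 13.9 and 7.96 CPM, and the libraries labelled TAZ4SA, at 10.8, 9.97 and 7.22, overlapped each other at the bottom of the order. EVsub held 28.1, 26.5 and 27.3 CPM, and CAMTA1 spread around it at 12.3, 18.8 and 29.9. The highest group mean was 38.5 times the lowest, next after POSTN among the 10 genes, and the SPARCL1 ratio was 28.1.

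Levels can be set between genes only after correction for length, as CPM per kilobase of annotated exon. On that scale SPARC led in EV at 353, with TNC at 123 and TGFBI at 93.1. THBS2 was at 14.6, SPP1 at 8.15, THBS3 at 6.30, SPARCL1 at 3.78, THBS1 at 3.58, POSTN at 3.53 and SMOC1 at 0.564. In YAP-TFE3, SPP1 reached 49.6 per kilobase and POSTN 10.9, and in the libraries labelled TAZ4SA POSTN was at 0.0722. SPARC thus stayed the most abundant transcript of the set in all 8 groups, down to 138 in TAZ4SA.

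**Figure D2:**
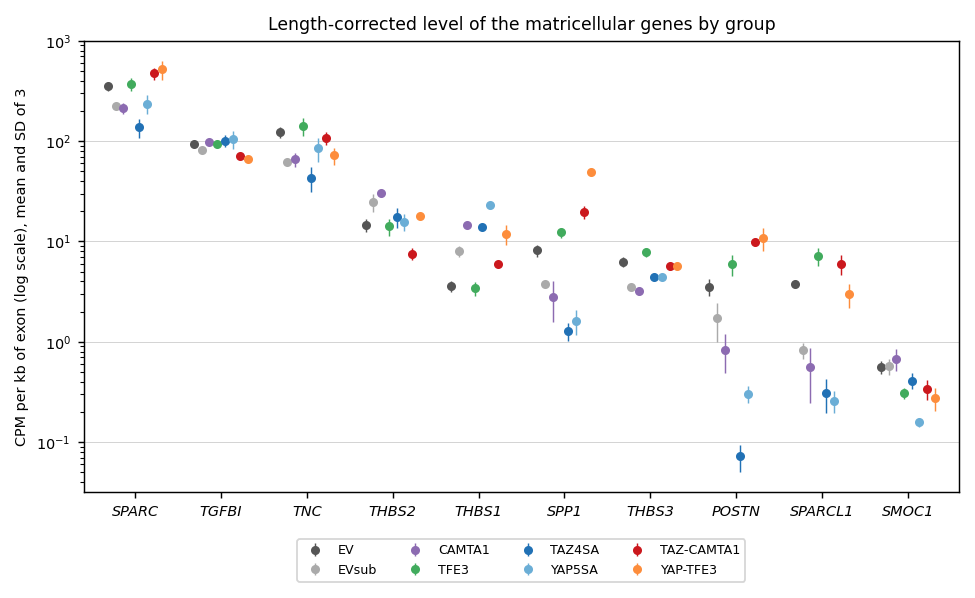
Mean CPM per kilobase of exon with SD (n = 3 libraries) for each gene and group, on a log axis, with genes ordered by their median over groups. SPARC, TGFBI and TNC stay high in every group, while POSTN covers the widest span, from 0.0722 in TAZ4SA to 10.9 in YAP-TFE3.

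The fusion TAZ-CAMTA1 was set against EV to see what it adds to confluent cells. POSTN was 2.79-fold higher, a log2 difference of 1.48 ± 0.25 (SE), and SPP1 was higher by 1.27 ± 0.21. THBS1 was higher by 0.72 ± 0.14 and THBS2 lower, at -0.96 ± 0.18. TGFBI was lower at -0.39 ± 0.11. SPARCL1 at 0.65 ± 0.25, SPARC at 0.42 ± 0.17 and SMOC1 at -0.74 ± 0.22 had no overlap with EV but were not called, and TNC at -0.18 ± 0.20 and THBS3 at -0.14 ± 0.11 overlapped EV. By edgeR, 3 of the 10 genes were called higher in TAZ-CAMTA1, beside 3.55% of all 19997 genes tested, and 2 were called lower, beside 1.44%. The 2 groups had no overlap in 8 of the 10 genes and 25.8% of all tested genes, and the median size of the log2 difference was 0.69 over the 10 genes and 0.17 over all genes. TGFBI was not called without any 1 of the EV libraries or of the TAZ-CAMTA1 libraries numbered 2 and 3, at -0.34 to -0.42, and SMOC1 was called without TAZ-CAMTA1 replicate 2, at -0.93. SMOC1 was also called by DESeq2, at -0.75, and among genes averaging 20 counts or more, at -0.75, and SPARC and SPARCL1 were called with only the compared groups in the fit, at 0.42 and 0.65, and with every gene of at least 1 count kept, at 0.44 and 0.66.

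The libraries labelled TAZ4SA were set against the same EV libraries. POSTN was 48.9-fold lower, at -5.61 ± 0.40 on the log2 scale, SPARCL1 was lower at -3.61 ± 0.32 and SPP1 at -2.66 ± 0.23. TNC, at -1.51 ± 0.21, SPARC, at -1.35 ± 0.17, and THBS3, at -0.50 ± 0.11, were lower by less. THBS1 alone was called higher, by 1.94 ± 0.14. TGFBI at 0.12 ± 0.11, THBS2 at 0.28 ± 0.17 and SMOC1 at -0.46 ± 0.22 overlapped EV. By edgeR, 1 of the 10 genes was called higher in TAZ4SA, beside 25.1% of all 19997 genes tested, and 6 were called lower, beside 24.2%. Libraries did not overlap in 7 of the 10 genes and 57.8% of all tested genes, and the median size of the log2 difference was 1.43 over the 10 genes and 0.42 over all genes. THBS2 was called without TAZ4SA replicate 3, at 0.45. Under total-count scaling, which moved the median log2 difference of all genes from -0.03 to -0.23, TGFBI changed sign to -0.08.

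For the YAP pair, YAP-TFE3 against EV gave SPP1 6.08-fold higher, at 2.60 ± 0.22 on the log2 scale. THBS1 was higher by 1.72 ± 0.14, POSTN by 1.61 ± 0.25 and SPARC by 0.55 ± 0.17. SMOC1 was lower at -1.02 ± 0.23, TNC at -0.77 ± 0.20 and TGFBI at -0.50 ± 0.11. SPARCL1 at -0.34 ± 0.25 and THBS3 at -0.13 ± 0.11 overlapped EV, and THBS2 at 0.29 ± 0.17 was not called. By edgeR, 4 of the 10 genes were called higher in YAP-TFE3, beside 25.6% of all 19997 genes tested, and 3 were called lower, beside 22.6%. No overlap was seen in 8 of the 10 genes and 51.1% of all tested genes, and the median size of the log2 difference was 0.66 over the 10 genes and 0.41 over all genes. Without YAP-TFE3 replicate 3, the library that stood apart, 6 of the 10 genes were called in either direction, with POSTN at 1.71, SPP1 at 2.61, THBS1 at 1.89 and TNC at -0.61, and SPARC, at 0.37, was not called. YAP5SA against EV gave SPARCL1 14.8-fold lower at -3.89 ± 0.34, POSTN lower at -3.53 ± 0.32, SPP1 at -2.34 ± 0.23 and SMOC1 at -1.84 ± 0.26. SPARC at -0.58 ± 0.17, TNC at -0.52 ± 0.20 and THBS3 at -0.50 ± 0.11 were lower by less, and THBS1 was 6.45-fold higher, at 2.69 ± 0.14. TGFBI at 0.17 ± 0.11 and THBS2 at 0.11 ± 0.17 overlapped EV, and under total-count scaling, where the median of all genes was -0.22, they changed sign to -0.02 and -0.08. By edgeR, 1 of the 10 genes was called higher in YAP5SA, beside 22.7% of all 19997 genes tested, and 7 were called lower, beside 21.6%. Ranges of the 2 groups were apart for 8 of the 10 genes and 52.6% of all tested genes, and the median size of the log2 difference was 1.21 over the 10 genes and 0.38 over all genes. Without YAP5SA replicate 3, SPARC at -0.41 and TNC at -0.32 were not called and TGFBI was, at 0.32, and TNC was also lost without EV replicate 1 at -0.55 or EV replicate 2 at -0.42.

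Full-length TFE3 against EV gave smaller differences. SPARCL1 was higher by 0.93 ± 0.25 on the log2 scale, POSTN by 0.74 ± 0.25, SPP1 by 0.59 ± 0.21 and THBS3 by 0.31 ± 0.11, and SMOC1 was lower at -0.87 ± 0.22, each without overlap between the groups. The other 5 genes overlapped EV. By edgeR, 0 of the 10 genes were called higher in TFE3, beside 0.035% of all 19997 genes tested, and 0 were called lower, beside 0%. At an unadjusted edgeR p under 0.05, in either direction, there were 5 of the 10 genes and 757 of all 19997, of which 323 were lower. DESeq2 called 0 of the 10 genes and 15 of all, of which 3 were lower. With every gene of at least 1 count kept in the fit, edgeR called 3 of the 10, SPARCL1 at 0.96, POSTN at 0.76 and SPP1 at 0.62. In that fit 36 of all 41116 genes were called higher and 4 lower. The 2 groups had no overlap in 5 of the 10 genes and 8.65% of all tested genes, and the median size of the log2 difference was 0.26 over the 10 genes and 0.10 over all genes.

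Cell density was addressed by EVsub against EV. SPARCL1 was 4.62-fold lower below confluence, at -2.21 ± 0.28 on the log2 scale, SPP1 was lower at -1.12 ± 0.21, POSTN at -1.07 ± 0.26 and TNC at -1.0001 ± 0.20. THBS3 at -0.83 ± 0.11 and SPARC at -0.66 ± 0.17 were lower too, while THBS1 was higher by 1.17 ± 0.14 and THBS2 by 0.77 ± 0.17. TGFBI at -0.19 ± 0.11 was not called, and SMOC1 at 0.03 ± 0.21 overlapped and changed sign under total-count scaling, to -0.03. By edgeR, 2 of the 10 genes were called higher in EVsub, beside 19.8% of all 19997 genes tested, and 6 were called lower, beside 17.1%. Libraries did not overlap in 9 of the 10 genes and 52.5% of all tested genes, and the median size of the log2 difference was 0.91 over the 10 genes and 0.33 over all genes. CAMTA1 against EVsub, both below confluence, gave THBS1 higher by 0.85 ± 0.13. POSTN at -1.04 ± 0.28 and TGFBI at 0.25 ± 0.11 did not overlap EVsub and were not called, and the other 7 genes overlapped. By edgeR, 1 of the 10 genes was called higher in CAMTA1, beside 1.26% of all 19997 genes tested, and 0 were called lower, beside 0.57%. At an unadjusted edgeR p under 0.05 there were 3 of the 10 genes and 2474 of all 19997, and DESeq2 called 1 of the 10 and 547 of all. No overlap was seen in 3 of the 10 genes and 21.6% of all tested genes, and the median size of the log2 difference was 0.28 over the 10 genes and 0.14 over all genes. POSTN was called without CAMTA1 replicate 3 at -1.25 or EVsub replicate 3 at -1.24, and SPP1 without CAMTA1 replicate 3 at -0.81.

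Set directly against its full-length counterpart, TAZ-CAMTA1 had 136-fold more POSTN than the libraries labelled TAZ4SA, a log2 difference of 7.09 ± 0.39. SPARCL1 was higher by 4.27 ± 0.32, SPP1 by 3.93 ± 0.24, SPARC by 1.78 ± 0.17, TNC by 1.33 ± 0.21 and THBS3 by 0.36 ± 0.11. THBS2 at -1.23 ± 0.18, THBS1 at -1.22 ± 0.14 and TGFBI at -0.51 ± 0.11 were lower, and SMOC1 at -0.28 ± 0.23 overlapped. By edgeR, 6 of the 10 genes were called higher in TAZ-CAMTA1, beside 26.9% of all 19997 genes tested, and 3 were called lower, beside 26.8%. Ranges of the 2 groups were apart for 9 of the 10 genes and 61.2% of all tested genes, and the median size of the log2 difference was 1.28 over the 10 genes and 0.46 over all genes. THBS3 was not called without TAZ-CAMTA1 replicate 1, at 0.27, and total-count scaling moved it to 0.56. YAP-TFE3 against YAP5SA gave POSTN higher by 5.14 ± 0.32, a 35.3-fold difference, SPP1 by 4.94 ± 0.25 and SPARCL1 by 3.55 ± 0.34. SPARC was higher by 1.13 ± 0.17, SMOC1 by 0.81 ± 0.28 and THBS3 by 0.37 ± 0.11, with THBS1 at -0.97 ± 0.13 and TGFBI at -0.67 ± 0.11 lower. TNC at -0.25 ± 0.20 and THBS2 at 0.18 ± 0.17 overlapped. By edgeR, 6 of the 10 genes were called higher in YAP-TFE3, beside 28.1% of all 19997 genes tested, and 2 were called lower, beside 24.3%. The 2 groups had no overlap in 8 of the 10 genes and 51.6% of all tested genes, and the median size of the log2 difference was 0.89 over the 10 genes and 0.45 over all genes. SMOC1 was not called without YAP5SA replicate 1, at 0.74, or YAP-TFE3 replicate 3, at 0.64, and without the latter POSTN was at 5.24 and SPP1 at 4.95.

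Between the fusions, POSTN did not differ beyond its spread. The log2 difference of TAZ-CAMTA1 over YAP-TFE3 was -0.13 ± 0.24, with a 95% normal interval of -0.60 to 0.34, and SPARC was at -0.13 ± 0.17. SPP1 at -1.33 ± 0.21, THBS2 at -1.25 ± 0.18 and THBS1 at -0.997 ± 0.14 were lower in TAZ-CAMTA1, and SPARCL1 by 0.99 ± 0.25 and TNC by 0.59 ± 0.20 were higher. TGFBI, THBS3 and SMOC1 overlapped, and THBS3, near 0, changed sign under total-count scaling, to 0.08. By edgeR, 2 of the 10 genes were called higher in TAZ-CAMTA1, beside 19.9% of all 19997 genes tested, and 3 were called lower, beside 22.8%. Libraries did not overlap in 5 of the 10 genes and 47.2% of all tested genes, and the median size of the log2 difference was 0.44 over the 10 genes and 0.36 over all genes. TNC was not called without TAZ-CAMTA1 replicate 1 at 0.50, TAZ-CAMTA1 replicate 2 at 0.54 or YAP-TFE3 replicate 3 at 0.43. Total-count scaling moved the share of all called genes that were higher from 50.9% to 31.4% in TAZ4SA against EV and from 51.2% to 31.4% in YAP5SA against EV. It moved that share from 53.7% to 42.0% in EVsub against EV, from 68.9% to 56.8% in CAMTA1 against EVsub, from 50.1% to 67.0% in TAZ-CAMTA1 against TAZ4SA and from 46.5% to 57.5% between the fusions. In YAP-TFE3 it went from 53.1% to 43.8% against EV and from 53.6% to 61.9% against YAP5SA.

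**Figure D3:**
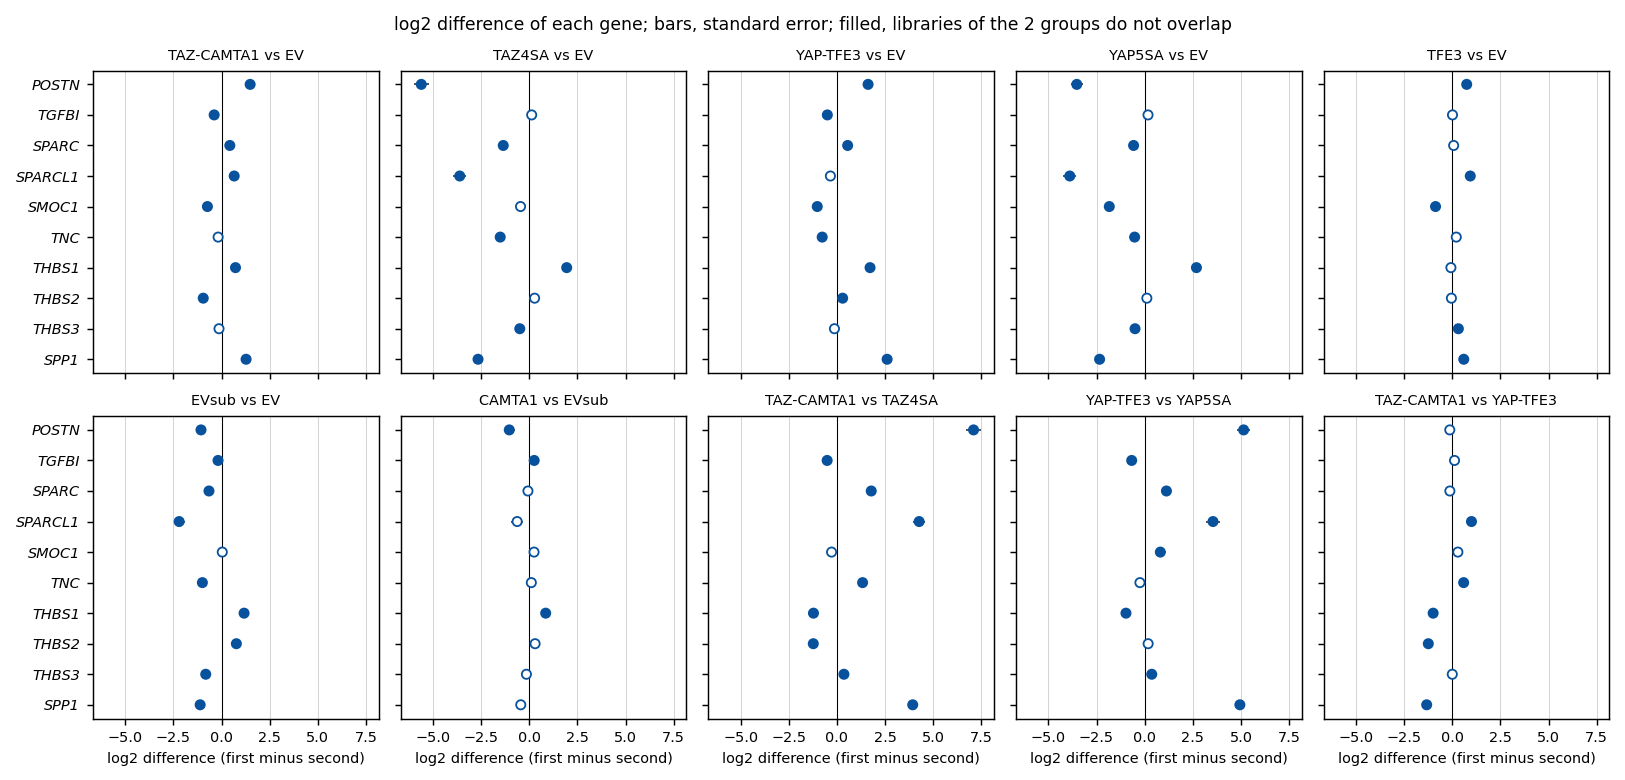
Log2 difference of each gene in the 10 comparisons, first group minus second, with bars for 1 SE from the edgeR fit over 24 libraries. Filled points mark genes whose 3 libraries per group do not overlap. POSTN is at -5.61 in TAZ4SA against EV and 1.48 in TAZ-CAMTA1 against EV, and THBS1 is to the right of 0 in both.

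Across the 8 group means of log2 CPM, POSTN followed SPARC (Pearson r = 0.951), SPP1 (0.939) and SPARCL1 (0.907) most closely among the 10 genes. It ran opposite to TGFBI (-0.761) and THBS1 (-0.642). Among 12329 other genes averaging 50 counts or more, the 3 genes most like it were ENPP2 (r = 0.997), which encodes autotaxin, ENTPD7 (0.995) and CNTFR (0.990). ENPP2 group means ran from 3.62 CPM in TAZ4SA to 41.3 in YAP-TFE3, CNTFR from 3.501 to 34.1, and ENTPD7 only from 7.08 to 14.7. These are descriptions over 8 points from shared libraries.

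The genes that work with these proteins were tested as lists, with edgeR p-values adjusted over all 19997 genes. Of all genes, 3.55% were called higher and 1.44% lower in TAZ-CAMTA1, and 25.1% and 24.2% in TAZ4SA. These shares were 25.6% and 22.6% in YAP-TFE3, 22.7% and 21.6% in YAP5SA, and 19.8% and 17.1% in EVsub, each against EV. In CAMTA1 against EVsub they were 1.26% and 0.57%. A list count near its share is not a result about that list. Of 17 other matricellular genes 11 were tested. Against EV, 1 of 11 rose and 1 fell in TAZ-CAMTA1 (median log2 difference 0.04, all genes 0.00), 6 of 11 rose and 3 fell in the libraries labelled TAZ4SA (median log2 difference 0.51, all genes -0.03), 6 of 11 rose and 2 fell in YAP-TFE3 (median log2 difference 0.71, all genes -0.01), and 7 of 11 rose and 4 fell in YAP5SA (median log2 difference 0.80, all genes -0.04). VTN, which encodes vitronectin, rose in TAZ-CAMTA1 by 1.92 ± 0.24 (adjusted p = 6.73e-06) and in YAP5SA by 2.02 ± 0.24 (adjusted p = 2.28e-07). Mean VTN in YAP-TFE3 was 3.46 CPM against 1.69 in EV, where no library held more than 53 counts. SPOCK1, a proteoglycan of the SPARC family, rose in YAP-TFE3 by 1.33 ± 0.12 (adjusted p = 1.35e-09) and fell in TAZ4SA, at -1.07 ± 0.12 (adjusted p = 6.55e-08). LGALS1, or galectin 1, fell in YAP-TFE3, at -1.14 ± 0.13 (adjusted p = 1.66e-07).

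Receptors for matricellular ligands numbered 17, of which 15 were tested. The counts stand beside the shares of all genes given with the first list. Those in YAP5SA, the rise in TAZ4SA and the fall in YAP-TFE3 were near them. Against EV, 3 of 15 rose in TAZ-CAMTA1 (median log2 difference 0.26, all genes 0.00), 3 of 15 rose and 6 fell in TAZ4SA (median log2 difference -0.23, all genes -0.03), 7 of 15 rose and 3 fell in YAP-TFE3 (median log2 difference 0.12, all genes -0.01), and 3 of 15 rose and 4 fell in YAP5SA (median log2 difference -0.10, all genes -0.04). ITGA9, a subunit of a tenascin and osteopontin receptor, fell in TAZ4SA, at -2.75 ± 0.21 (adjusted p = 1.70e-10), and in YAP5SA, at -2.89 ± 0.21 (adjusted p = 8.66e-11), from 99.5 CPM in EV to 14.8 and 13.4. It fell by less in YAP-TFE3, at -0.92 ± 0.19 (adjusted p = 3.84e-04), and in EVsub, at -1.05 ± 0.20 (adjusted p = 2.40e-04). ITGA8, another partner subunit of integrin beta 1, fell in YAP5SA, at -1.77 ± 0.22 (adjusted p = 5.61e-07), and in TAZ4SA, at -1.35 ± 0.21 (adjusted p = 1.51e-05). ITGB3, a subunit of the vitronectin receptor, rose in YAP-TFE3 by 3.84 ± 0.14 (adjusted p = 4.94e-16), from 6.91 to 98.9 CPM, and in TAZ-CAMTA1 by 0.66 ± 0.14 (adjusted p = 0.00492). CD44, the hyaluronan receptor, rose in TAZ4SA by 1.04 ± 0.14 (adjusted p = 9.01e-07) and in EVsub by 1.38 ± 0.14 (adjusted p = 3.96e-07). CD44 also rose in YAP5SA, by 0.95 ± 0.14 (adjusted p = 3.70e-06). SDC4, a syndecan, rose in TAZ4SA by 1.85 ± 0.13 (adjusted p = 3.38e-11) and in YAP5SA by 1.73 ± 0.13 (adjusted p = 1.02e-10). SDC4 also rose in EVsub, by 0.96 ± 0.13 (adjusted p = 8.04e-06). CD47, a thrombospondin receptor, rose in TAZ-CAMTA1 by 0.38 ± 0.09 (adjusted p = 0.0160), and lost its call without EV replicate 2, at 0.39, without EV replicate 3, at 0.32, and without TAZ-CAMTA1 replicate 2 or 3, at 0.37 and 0.36.

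All 12 matrix partners and processing enzymes were tested, and their counts stand beside the same shares of all genes. The rise in TAZ4SA and the fall in YAP5SA were near them. Against EV, 4 of 12 rose in TAZ-CAMTA1 (median log2 difference 0.39, all genes 0.00), 3 of 12 rose and 5 fell in TAZ4SA (median log2 difference -0.26, all genes -0.03), 4 of 12 rose and 4 fell in YAP-TFE3 (median log2 difference -0.08, all genes -0.01), 5 of 12 rose and 3 fell in YAP5SA (median log2 difference 0.16, all genes -0.04), and 1 of 12 rose and 8 fell in EVsub (median log2 difference -0.49, all genes -0.02). LOX, the enzyme that crosslinks collagen and whose activation periostin scaffolds, rose in TAZ-CAMTA1 by 2.10 ± 0.18 (adjusted p = 2.11e-08), in TAZ4SA by 2.66 ± 0.18 (adjusted p = 2.13e-11), in YAP5SA by 2.93 ± 0.18 (adjusted p = 3.94e-12) and in YAP-TFE3 by 4.10 ± 0.19 (adjusted p = 1.66e-14). LOX was thus higher than EV in all 4 groups, whereas POSTN was lower in the full-length groups. COL3A1 rose in TAZ-CAMTA1 by 0.82 ± 0.17 (adjusted p = 0.00303) and fell in TAZ4SA, at -2.07 ± 0.19 (adjusted p = 4.25e-09). VCAN, the hyaluronan-binding proteoglycan versican, fell in TAZ4SA, at -3.43 ± 0.24 (adjusted p = 3.32e-11), in YAP5SA, at -3.38 ± 0.24 (adjusted p = 4.57e-11), and in YAP-TFE3, at -2.27 ± 0.22 (adjusted p = 7.93e-09). FN1, or fibronectin, fell in EVsub, at -1.52 ± 0.23 (adjusted p = 3.07e-05). COL1A1 rose in YAP5SA by 1.67 ± 0.33 (adjusted p = 2.43e-04) and fell in YAP-TFE3, at -1.18 ± 0.35 (adjusted p = 0.00670). In CAMTA1 against EVsub 1 gene of the list rose, VCAN by 1.21 ± 0.21 (adjusted p = 0.00156).

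All 17 genes of the TGF-beta and BMP list were tested. The counts stand beside the same shares of all genes, and those in TAZ4SA and the falls in YAP-TFE3 and YAP5SA were near them. Against EV, 3 of 17 rose and 1 fell in TAZ-CAMTA1 (median log2 difference 0.14, all genes 0.00), 5 of 17 rose and 5 fell in TAZ4SA (median log2 difference 0.08, all genes -0.03), 6 of 17 rose and 4 fell in YAP-TFE3 (median log2 difference 0.09, all genes -0.01), and 7 of 17 rose and 4 fell in YAP5SA (median log2 difference 0.15, all genes -0.04). The ligand gene TGFB2 rose in TAZ4SA by 2.67 ± 0.14 (adjusted p = 2.67e-13) and in TAZ-CAMTA1 by 0.63 ± 0.14 (adjusted p = 0.00503), and TGFB3 fell in TAZ4SA, at -2.38 ± 0.16 (adjusted p = 1.27e-11), in YAP5SA, at -2.40 ± 0.16 (adjusted p = 1.21e-11), and in YAP-TFE3, at -1.50 ± 0.15 (adjusted p = 1.02e-08). The 2 ligand genes thus moved in opposite directions in TAZ4SA, and not only there. TGFB2 also rose in YAP-TFE3, by 0.99 ± 0.14 (adjusted p = 1.66e-06). In EVsub TGFB2 rose by 1.07 ± 0.14 (adjusted p = 5.19e-06) and TGFB3 fell, at -1.16 ± 0.15 (adjusted p = 4.91e-06). Mean TGFB2 in YAP5SA was 221 CPM against 34.5 in EV. BMP4 rose in TAZ4SA by 2.61 ± 0.16 (adjusted p = 5.51e-12) and in YAP5SA by 3.40 ± 0.17 (adjusted p = 8.98e-14). LTBP1, a latent TGF-beta binding protein, fell in TAZ4SA, at -1.43 ± 0.16 (adjusted p = 1.20e-07), and ID3, a BMP target, fell in TAZ-CAMTA1, at -0.64 ± 0.17 (adjusted p = 0.0315). That ID3 call held with all 6 libraries and was lost without any 1 of the EV libraries, at -0.58 to -0.67, or without TAZ-CAMTA1 replicate 3, at -0.51. Of 8 mesenchymal transcription factors, 2 of 8 rose and 1 fell in TAZ4SA (median log2 difference 0.04, all genes -0.03), 1 of 8 rose and 2 fell in YAP-TFE3 (median log2 difference -0.08, all genes -0.01), and 1 of 8 rose and 3 fell in YAP5SA (median log2 difference -0.50, all genes -0.04). These counts stand beside the same shares of all genes. The rise in TAZ4SA, beside 25.1%, and the fall in YAP-TFE3, beside 22.6%, were near them. RUNX2, a regulator of SPP1 in bone, rose in TAZ4SA by 0.90 ± 0.14 (adjusted p = 9.67e-06) and in YAP5SA by 0.75 ± 0.14 (adjusted p = 1.11e-04), the groups in which SPP1 was lowest. It also rose in EVsub, by 0.69 ± 0.14 (adjusted p = 5.42e-04). In YAP-TFE3, where SPP1 was highest, mean RUNX2 was 15.2 CPM against 12.2 in EV. A relation between the 2 genes was not tested. EGR1 in YAP-TFE3 stood at 11.5, 10.4 and 81.8 CPM, so its difference from EV of 2.23 ± 0.53 (adjusted p = 0.00119) rested on the library numbered 3 and was 0.57 without it. In TFE3 against EV, 0 of the 63 tested genes of these lists were called by edgeR and 0 by DESeq2, with 3 at an unadjusted edgeR p under 0.05, beside 757 of all 19997 genes.

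**Figure D4:**
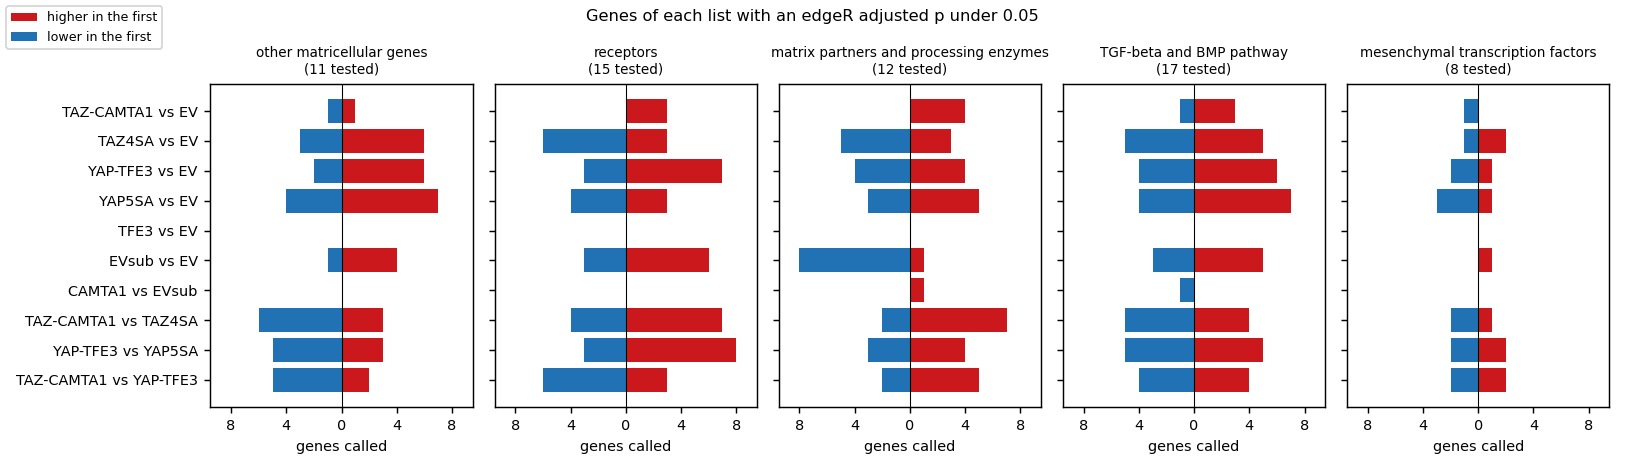
Number of genes of each list called by edgeR in each comparison, higher in the first group to the right and lower to the left. Matrix partners show 8 of 12 genes lower in EVsub against EV, beside 17.1% of all genes. TFE3 against EV shows 0 in every list, beside 0.035% of all genes higher and 0% lower.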

How the data were processed

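The authors aligned reads of stranded poly(A) libraries to hg38 with Hisat2 in bcbio-nextgen, and deposited whole-number counts per Ensembl gene for each library. The methods also describe Salmon with tximport, which gave the gene-level values for the study's own tests. Which of these routes made the deposited counts, and how strand and multiple alignments were treated, is not given in the sources used here. Groups and replicate numbers were read from the sample titles. Symbols, coordinates and exon lengths came from GENCODE 44, which held 56104 of the 60279 identifiers.

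Counts were tested with edgeR 4.0.16 (quasi-likelihood F test, TMM, all 24 libraries, 1 term per group) for genes averaging 5 counts or more over the libraries, and called at a Benjamini-Hochberg adjusted p under 0.05 over all tested genes. SE is the log2 difference divided by the root of F. The study's methods state that the 3 replicates of a construct came from separate transductions, each followed by selection, so the errors are between those lines of 1 parent cell line. On simulated counts for TAZ-CAMTA1 against EV over 19997 genes, 69% of 2-fold and 90% of 4-fold changes were recovered. Alternatives were DESeq2 1.42.0, its size factors, total-count scaling, other filters, a replicate block, only the groups compared, and each library left out. Overlapping genes were treated as uncertain.

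The 10 genes, the lists and the comparisons were chosen with earlier results of these counts known. Every one of the 10 genes is named in each group, and from each list at most the 2 highest and 2 lowest called genes per comparison, among those averaging 50 counts or more. ENPP2, ENTPD7 and CNTFR were named by rank of likeness to POSTN. One gene that this rule would name is not reported here.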

Additional observations from a re-analysis of the deposited data

Results flagged for a closer look

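Some genes lay on opposite sides of EV in a fusion and in its full-length coactivator, with every library of one group above all EV libraries and every library of the other below them. The matricellular genes were chosen with this difference known, so no p-value is given for it and their calls in the direct comparisons are a description. On the log2 scale against EV, POSTN was at 1.48 in TAZ-CAMTA1 and -5.61 in TAZ4SA, a difference of 7.092. SPARCL1 was at 0.65 in TAZ-CAMTA1 and -3.61 in TAZ4SA, a difference of 4.266. SPP1 was at 1.27 in TAZ-CAMTA1 and -2.66 in TAZ4SA, a difference of 3.933. SPARC was at 0.42 in TAZ-CAMTA1 and -1.35 in TAZ4SA, a difference of 1.778. In the YAP pair, POSTN was at 1.61 in YAP-TFE3 and -3.53 in YAP5SA, a difference of 5.14. SPP1 was at 2.60 in YAP-TFE3 and -2.34 in YAP5SA, a difference of 4.945. SPARC was at 0.55 in YAP-TFE3 and -0.58 in YAP5SA, a difference of 1.13.

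Genes of the accompanying lists were tested directly, as fusion minus full-length coactivator in the edgeR fit, and those called in opposite directions against EV are given here. In the TAZ pair, COL3A1 was at 0.82 in TAZ-CAMTA1 and -2.07 in TAZ4SA, a difference of 2.891 (adjusted p = 1.17e-11). TGFBR2 was at 0.36 in TAZ-CAMTA1 and -0.56 in TAZ4SA, a difference of 0.9178 (adjusted p = 4.79e-08). ITGB1 was at 0.32 in TAZ-CAMTA1 and -0.52 in TAZ4SA, a difference of 0.8435 (adjusted p = 5.75e-08). CD47 was at 0.38 in TAZ-CAMTA1 and -0.43 in TAZ4SA, a difference of 0.809 (adjusted p = 1.62e-07). SNAI1 was at -0.37 in TAZ-CAMTA1 and 0.32 in TAZ4SA, a difference of -0.6899 (adjusted p = 1.03e-05). In the YAP pair, BMP4 was at -0.69 in YAP-TFE3 and 3.40 in YAP5SA, a difference of -4.091 (adjusted p = 5.32e-15). COL1A1 was at -1.18 in YAP-TFE3 and 1.67 in YAP5SA, a difference of -2.853 (adjusted p = 2.99e-07). TNN was at 0.80 in YAP-TFE3 and -1.56 in YAP5SA, a difference of 2.357 (adjusted p = 8.99e-06). SPOCK1 was at 1.33 in YAP-TFE3 and -0.59 in YAP5SA, a difference of 1.927 (adjusted p = 2.95e-12). LGALS1 was at -1.14 in YAP-TFE3 and 0.55 in YAP5SA, a difference of -1.693 (adjusted p = 2.66e-10). TGFBR2 was at 0.40 in YAP-TFE3 and -0.63 in YAP5SA, a difference of 1.029 (adjusted p = 6.22e-09). LGALS3 was at 0.71 in YAP-TFE3 and -0.22 in YAP5SA, a difference of 0.9284 (adjusted p = 2.71e-09). In TAZ-CAMTA1 against EV the call of SNAI1 was lost without any 1 of the 6 libraries, at -0.42 to -0.33. That of TGFBR2 was lost without any 1 of them except EV replicate 3, at 0.28 to 0.38, and that of CD47 without EV replicate 2 or 3 or TAZ-CAMTA1 replicate 2 or 3, at 0.32 to 0.39. The edgeR call of ITGB1 there had an adjusted p of 0.0393, and whether it held with 1 library left out is not given here. In TAZ4SA against EV the call of SNAI1 was lost without EV replicate 1, at 0.28, or TAZ4SA replicate 1, at 0.29, and under total-count scaling, at 0.13. COL3A1 and COL1A1 encode fibrillar collagen chains, and TGFBR2 is the one gene of these lists found in both pairs, higher in each fusion. Single outlying libraries were not tested within the groups of 3.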

How the results depend on the processing

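Of 1300 alternative values for the 100 log2 differences of the matricellular genes, 1296 moved by less than the spread between replicates and 4 by more, all 4 under total-count scaling, and no called difference changed sign. Of 1804 alternative values for the named list genes, 62 lost their call and 0 reversed. With every gene of at least 1 count kept, 3 of the 10 genes and 3 list genes were called in TFE3 against EV, where the main counts were 0 and 0, and 3 of the 10 genes and 8 list genes in CAMTA1 against EVsub, where they were 1 and 2. Calls among all genes rose too. In TFE3 against EV they went from 7 higher and 0 lower of 19997 to 36 and 4 of 41116. In CAMTA1 against EVsub they went from 252 and 114 to 395 and 257. With only the compared groups in the fit, 2 of the 10 genes and 8 list genes were called in CAMTA1 against EVsub and 22 list genes in TAZ-CAMTA1 against EV, where the main count was 14. That fit called 398 of all 19997 genes higher and 250 lower in CAMTA1 against EVsub. In TAZ-CAMTA1 against EV it called 939 and 411, where the main fit called 709 and 287. Leaving out 1 library at a time gave 1 to 3 of the 10 genes and 1 to 3 list genes in CAMTA1 against EVsub, and 7 to 12 list genes in TAZ-CAMTA1 against EV, where the count was 9 without EV replicate 2, 7 without EV replicate 3 and 9 without TAZ-CAMTA1 replicate 3. In CAMTA1 against EVsub the 10 genes gave 3 calls without CAMTA1 replicate 3 and 2 without EVsub replicate 3, and the lists gave 1 without CAMTA1 replicate 2 or 3 or any 1 EVsub library. The cause of these moves was not tested, beyond that fewer libraries entered the last fits. Same-numbered libraries did not deviate together (correlations from -0.236 to 0.216, and in 0 of the 10 comparisons were all pairs over 0.1), so the numbers were not taken as pairs. A replicate block left all counts within 1.5 times the main ones, with 7 of the 10 genes called in TAZ4SA against EV and 5 in TAZ-CAMTA1 against EV, and the one call of a named gene lost was SNAI1 in TAZ-CAMTA1 against EV. Under that block 5026 of all 19997 genes were called higher and 4858 lower in TAZ4SA, and 758 and 347 in TAZ-CAMTA1. Depth limited POSTN and SPARCL1 in the full-length coactivator groups and SMOC1 throughout.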
